A study of Mus musculus with 8 samples.

Results

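The expression of 10 genes of the Ly6 and uPAR domain family was followed in the mouse esophagus after mice had been given the detergent sodium dodecyl sulfate (SDS) at 0.5% in their drinking water for 14 days. The 10 genes, Ly6a, Ly6c1, Ly6d, Ly6e, Ly6g6c, Lypd2, Lypd3, Slurp1, Lynx1 and Plaur, were chosen by name and matched by symbol to the identifiers of the count tables. All 10 were found among 49315 identifiers, and all 10 passed the filter on low counts that left 17179 genes for testing. RNA of the whole esophagus was selected for poly(A) and sequenced in 3 libraries from SDS-treated mice and 5 libraries from mice on untreated water, all taken at day 14. The mice of both groups were labelled wild type, and strain, sex and age were not given in the sources used here. Nothing in the labels ties each library to an animal of its own, and p-values therefore cover the spread between libraries, which may be technical. A sentence of the labels on RNA extraction speaks of cell pellets, whereas the tissue label and the treatment text name the esophagus.

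Proteins of this family carry a small fold held together by disulfide bonds, known as the Ly6 or uPAR domain. Most are tethered to the outer face of the cell membrane by a glycosylphosphatidylinositol (GPI) lipid anchor, and a few are secreted. Several are made in quantity by stratified squamous epithelium, the tissue that lines the mouse esophagus, while others mark endothelial cells, leukocytes or nerve and muscle. Slurp1 and Lynx1 are known as modulators of nicotinic acetylcholine receptors, and Plaur is the cell surface receptor of the protease urokinase.

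The listed genes lie in 3 places of the mm10 genome, by the coordinates of the deposited tables. Slurp1, Lypd2, Lynx1, Ly6d, Ly6e, Ly6a and Ly6c1 belong to a cluster of 19 family genes that spans 884.6 kb of chromosome 15, from 74714839 to 75599481. Plaur and Lypd3 lie on chromosome 7 with 160.6 kb between them, and Ly6g6c lies on chromosome 17 inside the major histocompatibility complex. All 10 are protein-coding genes, and reads were counted over their exons. The nearest relative of each listed gene among the family genes compared had between 49.0% and 97.7% of coding bases in common with it by GENCODE M21 transcripts. For 8 of the 10 that share was at most 54.8%. The exceptions were Ly6a, with 86.3% in common with Ly6i, and Ly6c1, with 97.7% in common with Ly6c2 and an identical run of 188 bases. The first 120 coding bases of this last pair are shown from GENCODE M21 because they bear on how far reads of Ly6c1 can be told apart from those of Ly6c2. Capitals mark the 6 bases that differ.
Ly6c1: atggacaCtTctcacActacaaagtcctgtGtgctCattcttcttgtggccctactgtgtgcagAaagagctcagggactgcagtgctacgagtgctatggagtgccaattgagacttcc
Ly6c2: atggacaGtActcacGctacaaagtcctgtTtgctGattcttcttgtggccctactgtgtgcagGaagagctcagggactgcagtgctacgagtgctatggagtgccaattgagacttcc

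Promoter sequences were at hand in RefSeq (GRCm38.p6) for 4 of the 10 genes, Plaur, Lypd3, Ly6c1 and Ly6g6c, as 250 bases before and 50 bases after an annotated start. They were searched on both strands for TGANTCA, the site of the AP-1 factors. The AP-1 letters occurred once, in Plaur, with the first base at -69 from the start, and they occur in 7.8% of 32851 promoters of that length. None of the windows of Lypd3, Ly6c1 and Ly6g6c held them. The Plaur window (chr7:24462233-24462532, plus strand) is shown because it holds the match, in capitals, and that of its neighbour Lypd3 (chr7:24636320-24636619, plus strand) because it holds none. A match of letters is a description and does not show that a factor binds.
Plaur: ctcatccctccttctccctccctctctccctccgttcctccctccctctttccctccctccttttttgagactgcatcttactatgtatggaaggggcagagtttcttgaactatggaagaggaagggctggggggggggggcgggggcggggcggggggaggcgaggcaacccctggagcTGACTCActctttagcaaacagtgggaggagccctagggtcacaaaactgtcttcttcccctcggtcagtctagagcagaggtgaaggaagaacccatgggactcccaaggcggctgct
Lypd3: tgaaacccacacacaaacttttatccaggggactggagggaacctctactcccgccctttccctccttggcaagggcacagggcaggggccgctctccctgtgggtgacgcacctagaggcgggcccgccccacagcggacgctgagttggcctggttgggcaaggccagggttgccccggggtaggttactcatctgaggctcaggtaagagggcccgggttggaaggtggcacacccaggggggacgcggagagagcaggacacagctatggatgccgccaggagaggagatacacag

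Total counts assigned to genes lay between 24682611 and 26669024 in the SDS libraries and between 22033866 and 29802362 in the control libraries. The mitochondrial share of the counts lay between 1.90% and 4.22%. Keratin Krt13, a defining gene of esophageal epithelium, was measured at 41997 to 71974 CPM (counts divided by library size in units of 1e+06, over library sizes scaled by TMM) in SDS libraries and at 19388 to 62960 CPM in controls. SDS library 3 stood apart from the other SDS libraries. Without it, 1222 genes were called, that is, passed an adjusted p of 0.05 in edgeR's quasi-likelihood test with Benjamini-Hochberg adjustment, against 180 with all 8 libraries. The change of each of the 10 genes is therefore given with this library and without it. This library was singled out from these same data, so p-values without it tend to be too small. They are given as a description only.

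The comparison of SDS with control asked how these 10 genes stood after exposure to the detergent. Ly6a was higher and Lynx1 lower in every SDS library than in every control library, with SDS library 3 nearest to the controls for Ly6a and farthest from them for Lynx1. Slurp1 was far below the control range in SDS libraries 1 and 2 and within it in SDS library 3, and Lypd2 was below the control range in the same libraries and above it in SDS library 3. The abundant epithelial genes Ly6d, Lypd3 and Ly6g6c varied more than 2-fold among the controls and overlapped between the groups. None of the 10 passed an adjusted p of 0.05 with all 8 libraries.

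In numbers, 0 of the 10 genes passed the edgeR quasi-likelihood test after Benjamini-Hochberg adjustment over all tested genes, against 1.05% of the 17179. An unadjusted p below 0.05 was reached by 4 of the 10 (Slurp1, Lynx1, Ly6a and Ly6e), against 18.5% of all tested genes. Ranges of the groups were apart for 2 of the 10, Ly6a and Lynx1, against 13.4% of all tested genes. The fitted change was above 0 for 6 genes and below 0 for 4, with a median log2 fold change of 0.36 against -0.0047 over all tested genes. The median size of the change, whatever its sign, was 0.52 on the log2 scale, against 0.23 over all tested genes. With DESeq2, Ly6a passed as higher and Lynx1 as lower, 2 of the 10 against 8.89% of the 17783 genes that it tested (4.89% higher and 4% lower). limma-voom called 0 of the 10, against 135 of the 17179 genes. It had 3 of the 10 at an unadjusted p below 0.05, and no share of all genes was taken for that count. The shares over all tested genes given here are also the background for the counts in gene lists below. Without SDS library 3, edgeR called 3 of the 10, Ly6a as higher and Slurp1 and Lypd2 as lower, against 6.92% of 17662 genes (4.98% higher and 1.94% lower).

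**Figure D1:**
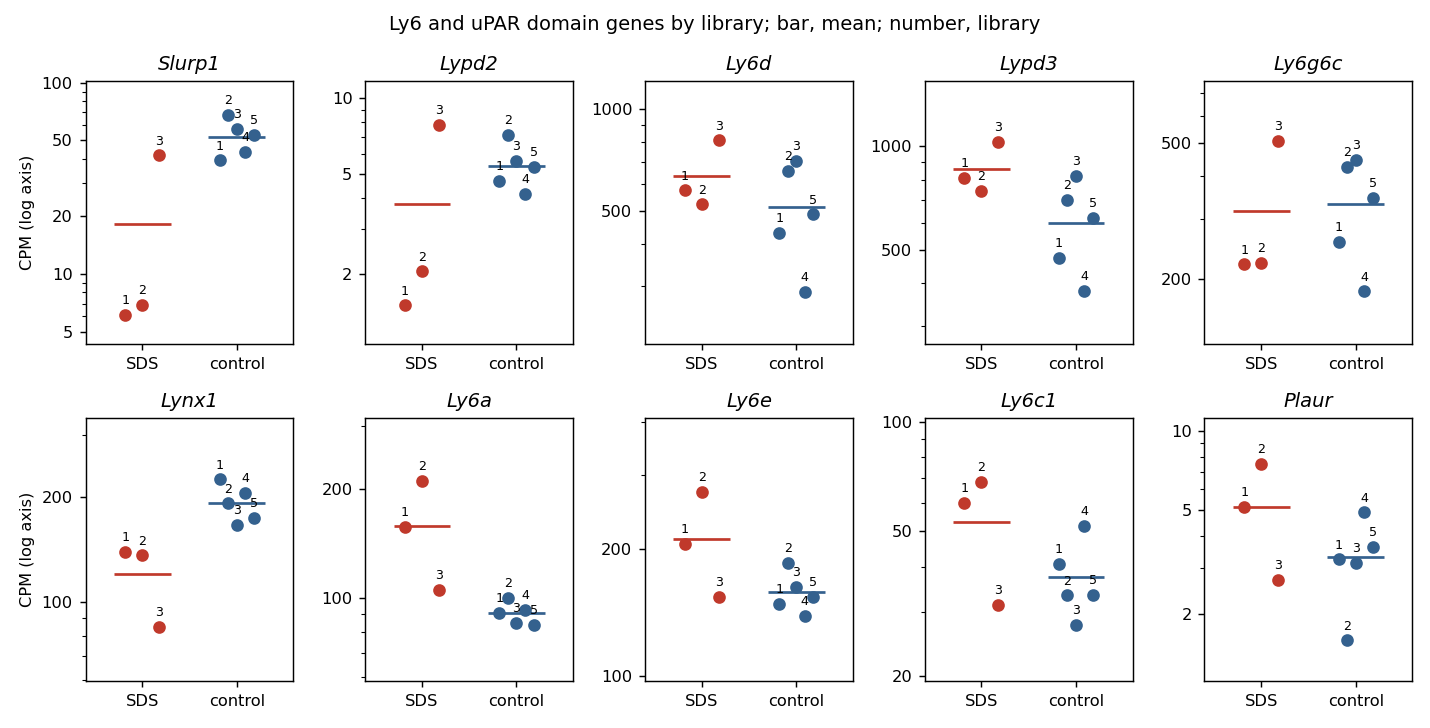
Level of each of the 10 genes in CPM (vertical log axis) in the 3 SDS libraries (left of each panel) and the 5 control libraries (right), with points numbered by library and a bar at the mean. The groups are apart for Ly6a and Lynx1, and SDS library 3 lies away from SDS libraries 1 and 2 for Slurp1, at 41.7 against 6.13 and 6.92 CPM.

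**Figure D2:**
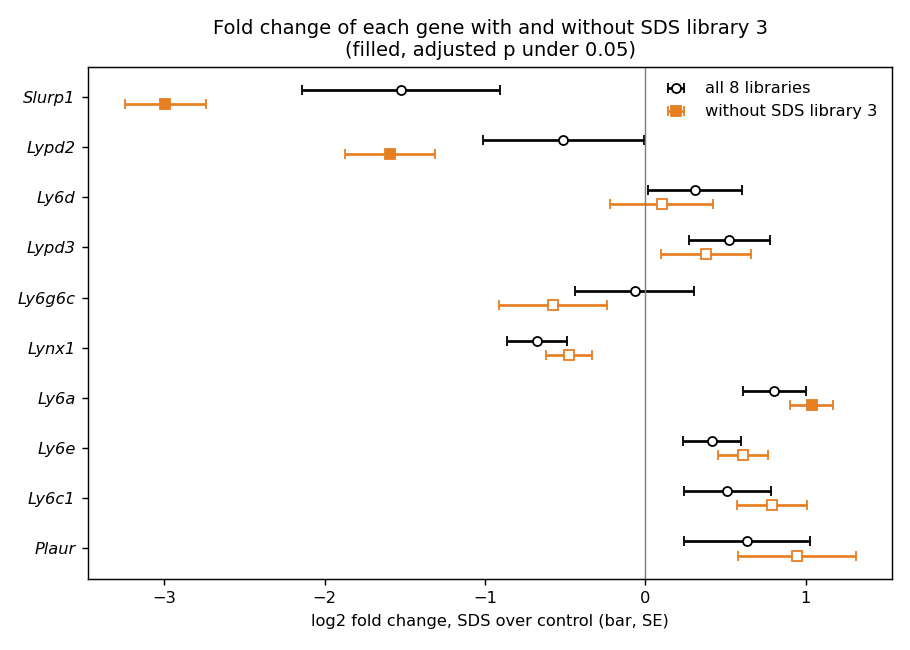
Log2 fold change of each gene (SDS over control) with its standard error, from all 8 libraries (black circles) and without SDS library 3 (orange squares), where filled symbols mark an adjusted p under 0.05 by edgeR. No symbol is filled with all 8 libraries, and those of Slurp1 (-2.99), Lypd2 (-1.59) and Ly6a (1.04) are filled without SDS library 3. That library was singled out from these same data, so symbols filled without it are a description.

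Set in order per length of counted exon, the levels of the 10 genes covered more than 2 orders of magnitude. In SDS libraries Ly6d led with 854 ± 205 CPM per kb (SD, n = 3), followed by Lypd3 with 523 ± 91.8, Ly6g6c with 232 ± 120 and Ly6a with 131 ± 44.0. Ly6e (55.7 ± 15.7), Ly6c1 (31.8 ± 11.6) and Lynx1 (25.8 ± 6.50) came next, and Slurp1 (6.22 ± 6.93), Lypd2 (5.56 ± 5.15) and Plaur (1.96 ± 0.919) last. Neighbours whose libraries overlapped in the SDS group were Ly6g6c and Ly6a, Ly6e and Ly6c1, Ly6c1 and Lynx1, Slurp1 and Lypd2, and Lypd2 and Plaur. In controls Ly6d had 690 ± 229 CPM per kb (SD, n = 5), Lypd3 364 ± 107, Ly6g6c 243 ± 81.6 and Ly6a 75.0 ± 5.30. They were followed by Ly6e with 41.7 ± 4.63, Lynx1 with 41.2 ± 5.06, Ly6c1 with 22.3 ± 5.53, Slurp1 with 17.8 ± 3.90, Lypd2 with 7.92 ± 1.66 and Plaur with 1.26 ± 0.453. Control neighbours that overlapped were Ly6d and Lypd3, Lypd3 and Ly6g6c, Ly6e and Lynx1, and Ly6c1 and Slurp1. The order was thus the same in both groups for the top 5 genes and the last 3, and Lynx1 and Ly6c1 changed places. Summed over the 10 genes, the level was 2383 ± 341 CPM in SDS libraries (SD, n = 3) and 1983 ± 453 CPM in controls (SD, n = 5).

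Slurp1 (ENSMUSG00000022596, chromosome 15, 74724318 to 74728034, minus strand) encodes a secreted protein of squamous epithelium that acts on nicotinic receptors, and loss of its human counterpart causes a thickening of the palms and soles. It measured 6.13, 6.92 and 41.7 CPM in SDS libraries 1, 2 and 3, against 39.3, 68.1, 57.5, 43.5 and 53.1 CPM in control libraries 1 to 5. SDS libraries 1 and 2 stood at 0.117 and 0.132 times the control mean, and SDS library 3 lay inside the control range. Over all 8 libraries this gave a log2 fold change of -1.52 ± 0.62 (SE; 95% interval from -2.93 to -0.11), which edgeR's quasi-likelihood test did not call (Benjamini-Hochberg adjusted p = 0.236). Without SDS library 3 it fell by 2.99 on the log2 scale (SE 0.25; edgeR, adjusted p = 0.000951). The counts behind these levels were 156, 197 and 1000 reads in the SDS libraries and 1150 to 1557 in the controls, so the gap is well above counting error. The annotated span of Slurp1 overlaps the opposite-strand gene Them6 by 322 bp, and Them6 counts were 178, 216 and 132 in SDS libraries 1, 2 and 3, against 149 to 177 in controls. Strand use in counting was not given, and reads of the shared stretch cannot be assigned.

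Lypd2 (ENSMUSG00000022595, chromosome 15, 74732247 to 74734329, minus strand), the neighbour of Slurp1 and a gene with a predicted GPI-anchored product, had a like order of libraries at a lower level. It measured 1.49, 2.04 and 7.80 CPM in SDS libraries 1, 2 and 3, against 4.68, 7.13, 5.61, 4.16 and 5.30 CPM in control libraries 1 to 5. SDS libraries 1 and 2 were below every control and SDS library 3 was above every control. Together they gave a log2 fold change of -0.51 ± 0.50 (SE; 95% interval from -1.66 to 0.64), not past the threshold (adjusted p = 0.642, edgeR with Benjamini-Hochberg). Without SDS library 3 it fell by 1.59 on the log2 scale (SE 0.28, adjusted p of 0.0192 by edgeR).

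Ly6d (ENSMUSG00000034634, chromosome 15, 74762056 to 74763620, minus strand) encodes a GPI-anchored surface protein of keratinocytes, and its human counterpart was described as the E48 antigen of squamous cells. It measured 575, 523 and 809 CPM in SDS libraries 1, 2 and 3, against 430, 656, 705, 287 and 488 CPM in control libraries 1 to 5. SDS library 3 was above all controls, the other SDS libraries lay among them, and the highest control had 2.46 times the lowest. For Ly6d edgeR gave 0.31 ± 0.29 as the log2 fold change (SE; 95% interval from -0.36 to 0.98; Benjamini-Hochberg adjusted p = 0.630), and 0.10 ± 0.32 (SE) without SDS library 3.

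Lypd3 (ENSMUSG00000057454, chromosome 7, 24636550 to 24641118, plus strand), also known as C4.4A, encodes a GPI-anchored protein of the suprabasal layers of squamous epithelium. It measured 809, 744 and 1032 CPM in SDS libraries 1, 2 and 3, against 473, 701, 821, 381 and 622 CPM in control libraries 1 to 5. All SDS libraries were above 4 of the 5 controls, and control library 3 reached into their range. Its fitted log2 fold change of 0.52 ± 0.25 (SE; 95% interval from -0.055 to 1.10) had an adjusted p of 0.316 in edgeR with Benjamini-Hochberg adjustment, and it was 0.38 ± 0.28 (SE) without SDS library 3. An opposite-strand transcript, Gm26550, overlaps the annotated span by 1367 bp with 180, 200 and 237 counts in SDS libraries 1, 2 and 3, against 202 to 337 in controls, few beside the 20592 to 24748 counts of Lypd3 in SDS and 11260 to 22246 in controls.

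Ly6g6c (ENSMUSG00000092586, chromosome 17, 35065388 to 35070050, plus strand) encodes a GPI-anchored family protein. It measured 220, 223 and 507 CPM in SDS libraries 1, 2 and 3, against 257, 426, 447, 184 and 346 CPM in control libraries 1 to 5. SDS libraries 1 and 2 lay among the low controls and SDS library 3 above all controls. Across the groups the log2 fold change came to -0.07 ± 0.37 (SE; 95% interval from -0.91 to 0.78; edgeR, Benjamini-Hochberg adjusted p = 0.946). It was -0.57 ± 0.34 (SE; adjusted p = 0.379) without SDS library 3, and above 0 without control library 2 or 3 or SDS library 1 or 2. The span overlaps the opposite-strand gene Mpig6b by 797 bp, which had at most 57 counts in an SDS library and 73 in a control library.

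The profiles of the 3 abundant epithelial genes over the libraries were set beside each other and beside the sum of squamous epithelial markers. The likeness of 2 profiles was measured as the root mean square (RMS) difference of their log2 CPM over the 8 libraries, each centred on its own mean, as a description without a test. Ly6d and Lypd3 had the smallest difference of all pairs of listed genes, 0.145, Ly6d and Ly6g6c had 0.298, and Ly6g6c and Lypd3 had 0.406. The summed level of 16 markers of stratified squamous epithelium was 113040, 115650 and 166660 CPM in SDS libraries 1, 2 and 3, against 55163 to 158710 CPM in controls. In this and the other marker sums the most abundant markers weigh most, and Krt13 alone gave 41997 CPM of it in SDS library 1. Against that sum the RMS difference was 0.129 for Ly6d, 0.195 for Lypd3 and 0.284 for Ly6g6c, the smallest for each among 7 sums of cell type markers. Of the 16 markers, 12 were above 0 and 4 below 0 in fitted change, with 3 called as higher by edgeR (Krt6b, Krt16 and Krt14) and none at 0 in either group. Krt14, a keratin of the basal layer, rose by 2.55 on the log2 scale (SE 0.47; edgeR, adjusted p = 0.0493), and it was called neither by limma-voom nor when any 1 library other than SDS library 3 was left out (adjusted p up to 0.194). Krt6b and Krt16, keratins of wounded epithelium, were likewise not called by limma-voom or in most fits without 1 library (adjusted p up to 0.147 and 0.156), and Krt6a, another such keratin, had a log2 fold change of 5.00 ± 0.98 (SE; edgeR, adjusted p = 0.0538). Krt6a measured 3568, 2819 and 51.1 CPM in SDS libraries 1, 2 and 3, against 43.6 to 108 CPM in controls, so SDS library 3 lay inside the control range. Krt6b was at 115 CPM and Krt16 at 10.7 CPM in SDS library 3, just above control maxima of 66.6 and 9.08 CPM, and both were at 1852 CPM or more in SDS libraries 1 and 2. Without SDS library 3 all 4 keratins were called by edgeR, with log2 fold changes of 2.97 for Krt14, 5.58 for Krt6a, 7.32 for Krt6b and 8.33 for Krt16 (adjusted p at most 0.00306), and DESeq2 called all 4 with all 8 libraries. Per read of Krt13, Ly6d had 0.0137, 0.0117 and 0.0112 reads in SDS libraries 1, 2 and 3 and 0.0105 to 0.0148 in controls, so the groups overlapped. Lypd3 had 0.0193, 0.0167 and 0.0143 reads per read of Krt13 in SDS libraries 1, 2 and 3, against 0.0136, 0.0132, 0.0131, 0.0196 and 0.0133 in control libraries 1 to 5, above 4 of the 5 controls in every SDS library. Fewer cells of a type and less RNA per cell cannot be told apart in RNA of a whole tissue, and the part of epithelial content in the levels of these genes was not tested.

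Slurp1 and Lypd2 lay farther from the squamous sum over the 8 libraries, with RMS differences of 1.34 and 0.781. For Lypd2 it was still the nearest marker sum, ahead of skeletal muscle (0.858), while for Slurp1 skeletal muscle was nearer (1.19). Over the 5 controls the difference from the squamous sum was 0.384 for Slurp1 and 0.370 for Lypd2. The nearest sums there were fibroblasts for Slurp1 (0.379) and skeletal muscle for Lypd2 (0.316). These differences, those from the squamous sum included, were larger than the gene's own SD of log2 CPM over the controls. That SD was 0.317 for Slurp1 and 0.29 for Lypd2. Per read of Ly6d, Slurp1 had 0.0107, 0.0133 and 0.0515 reads in SDS libraries 1, 2 and 3, against 0.0912, 0.104, 0.0815, 0.151 and 0.109 in control libraries 1 to 5. Every SDS library was below every control on this ratio, which was chosen after the values were seen. In SDS library 3 Slurp1 itself lay inside the control range, at 41.7 CPM, and Ly6d was at its highest of the 8 libraries, at 809 CPM.

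**Figure D3:**
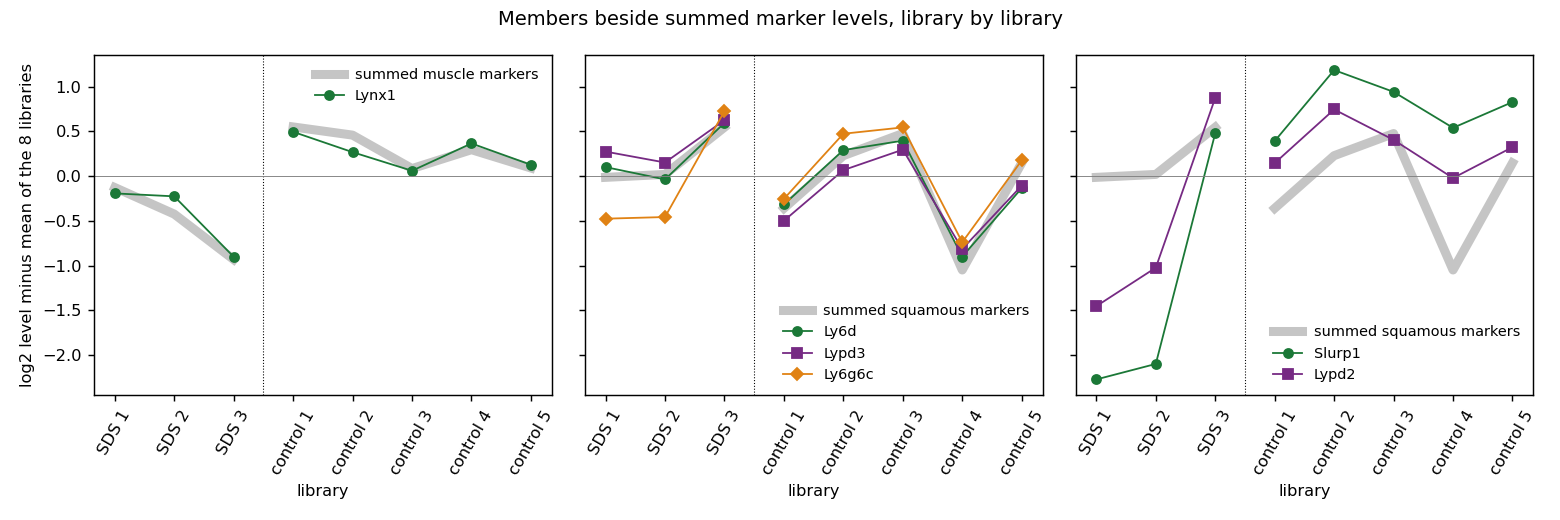
Log2 level of genes in each library (coloured points) minus the mean of the 8 libraries, beside the summed level of a marker list (grey band), with the 3 SDS libraries left of the dotted line and the 5 controls right of it. Lynx1 runs with skeletal muscle markers (RMS difference 0.106), and Ly6d, Lypd3 and Ly6g6c run with squamous markers (0.129 to 0.284). Slurp1 lies far below the squamous band in SDS libraries 1 and 2 (-2.27 and -2.10) and close to it in SDS library 3 (0.48 against 0.547). It lies above the band in all controls, but SDS libraries 1 and 2 lower the mean on which Slurp1 is centred.

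Lynx1 (ENSMUSG00000022594, chromosome 15, 74747852 to 74753046, minus strand) encodes a GPI-anchored modulator of nicotinic receptors that was described in neurons of the brain. It measured 139, 136 and 85.1 CPM in SDS libraries 1, 2 and 3, against 224, 192, 166, 205 and 174 CPM in control libraries 1 to 5. Every SDS library was below every control, and SDS library 3 was the lowest. A log2 fold change of -0.68 ± 0.19 (SE; 95% interval from -1.10 to -0.25) did not pass in edgeR (Benjamini-Hochberg adjusted p = 0.109). DESeq2 gave an adjusted p of 0.0131, and without SDS library 3 the edgeR log2 fold change was -0.48 with an adjusted p of 0.0972. The summed level of 10 skeletal muscle markers was 26170, 21304 and 14977 CPM in SDS libraries 1, 2 and 3, against 30306 to 41846 CPM in controls. All 10 muscle markers were below 0 in fitted change, and 7 had group ranges apart, against 13.4% of all tested genes. By edgeR 0 passed, with 7 at an unadjusted p below 0.05, against 18.5% of all tested genes. DESeq2 called 6 as lower, against 4% of the genes that it tested. limma-voom called 0, and none of the 10 was at 0 in a group. The RMS difference between Lynx1 and the muscle sum was 0.106 over 8 libraries and 0.0902 over the 5 controls, the smallest of the 7 marker sums in both. Over the 5 controls the muscle sum was also the nearest for Ly6a (0.134), Ly6e (0.222) and Lypd2 (0.316). Each of those differences was larger than the gene's own SD of log2 CPM over the controls (0.101, 0.156 and 0.29). A flat profile would thus lie nearer to these genes than the muscle sum. For Lynx1 that SD was 0.176, above its difference from the muscle sum. The mouse esophagus has a coat of skeletal muscle, and the part of muscle RNA in the level of Lynx1 was not tested.

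Ly6a (ENSMUSG00000075602, chromosome 15, 74994877 to 74998031, minus strand) encodes Sca-1, a GPI-anchored surface antigen of mouse stem and progenitor cells that is also found on fibroblasts, endothelium and leukocytes and is known to respond to interferon. It measured 158, 211 and 105 CPM in SDS libraries 1, 2 and 3, against 90.6, 99.7, 85.2, 92.5 and 83.8 CPM in control libraries 1 to 5. The groups did not overlap, and the controls lay within 1.19 times of each other. SDS library 3 was 1.16 times the control mean, and SDS libraries 1 and 2 were 1.75 and 2.33 times that mean. The fit gave a log2 fold change of 0.80 ± 0.20 (SE; 95% interval from 0.36 to 1.25), short of the threshold in edgeR (Benjamini-Hochberg adjusted p = 0.0837). DESeq2 gave an adjusted p of 0.00631, and without SDS library 3 Ly6a rose by 1.04 on the log2 scale (SE 0.14, adjusted p of 0.00662 by edgeR). Reads of the near relative Ly6i were few, at 4, 17 and 1 counts in SDS libraries 1, 2 and 3, against 0 to 6 in controls, beside 4011, 6003 and 2514 counts of Ly6a in SDS and 2071 to 2737 in controls.

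Ly6e (ENSMUSG00000022587, chromosome 15, 74955051 to 74959905, plus strand) encodes a widely made GPI-anchored protein that interferon induces and that is known for effects on virus entry. It measured 205, 273 and 154 CPM in SDS libraries 1, 2 and 3, against 148, 185, 162, 139 and 154 CPM in control libraries 1 to 5. SDS libraries 1 and 2 were above every control and SDS library 3 lay among them. In edgeR its log2 fold change was 0.42 ± 0.18 (SE; Benjamini-Hochberg adjusted p = 0.269), and without SDS library 3 it was 0.61 ± 0.16 (SE; adjusted p = 0.0618).

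Ly6c1 (ENSMUSG00000079018, chromosome 15, 75044018 to 75048830, minus strand) encodes part of the Ly6C antigen, known on endothelial cells and some leukocytes. It measured 59.8, 68.6 and 31.4 CPM in SDS libraries 1, 2 and 3, against 40.8, 33.3, 27.7, 51.7 and 33.4 CPM in control libraries 1 to 5. Again SDS libraries 1 and 2 were above every control, and SDS library 3 was below 4 of the 5. All libraries together gave 0.51 ± 0.27 as its log2 fold change (SE; edgeR, Benjamini-Hochberg adjusted p = 0.360), and 0.79 ± 0.22 (SE; adjusted p = 0.0753) without SDS library 3. Its near copy Ly6c2, shown beside it above and known on monocytes, had 30, 78 and 11 counts in the SDS libraries against 3, 1, 1, 25 and 8 in control libraries 1 to 5, overlapping groups at a far lower level. The split of reads between these copies is uncertain, since the handling of reads with several matches was not given.

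Ly6a, Ly6e and Ly6c1 were the next most alike of the listed genes, with RMS differences of 0.211 between Ly6a and Ly6e and 0.280 between Ly6a and Ly6c1. In each of them SDS library 2 was the highest and SDS library 3 the lowest of the SDS group. Several marker sums have SDS library 2 highest and SDS library 3 lowest in the same way. The sum of 12 myeloid markers was 702, 1441 and 362 CPM in SDS libraries 1, 2 and 3, against 239 to 397 CPM in controls. All 12 were above 0 in fitted change, and 3 had ranges apart, against 13.4% of all tested genes. By edgeR 0 passed, with 9 at an unadjusted p below 0.05, against 18.5% of all tested genes. DESeq2 called 6 as higher, against 4.89% of the genes that it tested, and limma-voom called 0. The sum of 10 fibroblast markers was 3112, 7000 and 1512 CPM in SDS libraries 1, 2 and 3, against 2592 to 3378 CPM in controls, with 8 above 0 and 0 called by edgeR (1 at an unadjusted p below 0.05, 0 called by DESeq2 or limma-voom). The sum of 12 endothelial markers was 364, 309 and 185 CPM in SDS libraries 1, 2 and 3, against 219 to 425 CPM in controls, with 5 above 0 and 0 called by any of these tools (1 at an unadjusted p below 0.05 by edgeR). The sum of 10 lymphocyte markers was 14.9, 17.6 and 12.4 CPM in SDS libraries 1, 2 and 3, against 1.99 to 5.88 CPM in controls, with 7 of the 10 tested and Cd3d called as higher by edgeR, though not by limma-voom or in 6 of 8 edgeR fits without 1 library (adjusted p up to 0.196). All 7 tested lymphocyte markers were above 0 in fitted change, and 3 had ranges apart, against 13.4% of all tested genes. By edgeR 5 had an unadjusted p below 0.05, against 18.5% of all tested genes. DESeq2 called 5 of the lymphocyte markers as higher, against 4.89% of the genes that it tested. It had 8 at an unadjusted p below 0.05, a count for which no share of all genes was taken. The sum of 8 adipocyte markers was 1567, 139 and 366 CPM in SDS libraries 1, 2 and 3, against 95.4 to 5418 CPM in controls, with 8 of 8 below 0 and 0 called by edgeR, DESeq2 or limma-voom (0 at an unadjusted p below 0.05). No marker of these 5 lists was at 0 in all libraries of a group. Over the 8 libraries the nearest sum was that of endothelium for Ly6c1 (RMS difference 0.297), of myeloid cells for Ly6a (0.404) and of fibroblasts for Ly6e (0.412). For Ly6a the fibroblast sum was close behind (0.420). The SD of log2 CPM over the 8 libraries was 0.479 for Ly6c1 and for Ly6a and 0.319 for Ly6e. The difference for Ly6e was thus larger than its own spread, and that for Ly6a was not far below it. Over the 5 controls the nearest sum was endothelium again for Ly6c1 (0.122). It was muscle for Ly6a and Ly6e, as given above, with differences larger than their own spread. The part of these cells in the levels was not tested. Of 18 interferon-stimulated genes, 0 passed by edgeR, DESeq2 or limma-voom (2 at an unadjusted p below 0.05 by edgeR), with a median log2 fold change of 0.22. Their sum was 240, 276 and 180 CPM in SDS libraries 1, 2 and 3, against 134 to 482 CPM in controls.

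Plaur (ENSMUSG00000046223, chromosome 7, 24462484 to 24475968, plus strand), the urokinase receptor whose promoter is shown above, concentrates plasmin formation at the surface of leukocytes and migrating keratinocytes. It measured 5.15, 7.52 and 2.71 CPM in SDS libraries 1, 2 and 3, against 3.24, 1.59, 3.14, 4.90 and 3.62 CPM in control libraries 1 to 5. SDS libraries 1 and 2 were above every control, while SDS library 3 lay inside a control range that spanned 3.08-fold. Between the groups Plaur had a log2 fold change of 0.63 ± 0.39 (SE; edgeR, Benjamini-Hochberg adjusted p = 0.442), or of 0.95 ± 0.37 (SE; adjusted p = 0.182) without SDS library 3. Its nearest marker sum was that of myeloid cells, with an RMS difference of 0.392 over 8 libraries, and their part in its level was not tested.

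Of 13 tested genes of the urokinase system, 0 passed by edgeR, DESeq2 or limma-voom, with a median log2 fold change of -0.09. By edgeR 4 had an unadjusted p below 0.05, against 18.5% of all tested genes. Plau, which encodes urokinase, the ligand of Plaur, measured 32.5, 39.5 and 11.8 CPM in SDS libraries 1, 2 and 3, against 17.1, 17.7, 7.57, 14.2 and 13.4 CPM in control libraries 1 to 5. As with Plaur, SDS libraries 1 and 2 were above every control and SDS library 3 lay among them. Plau had a log2 fold change of 1.00 ± 0.38 (SE; edgeR, Benjamini-Hochberg adjusted p = 0.211), and without SDS library 3 it rose by 1.37 (adjusted p of 0.0307). Serpinb2, which encodes an inhibitor of urokinase, had a log2 fold change of 0.00 ± 0.36 (SE; -0.49 without SDS library 3) and did not pass the test.

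Slurp1 and Lynx1 are tied by function to the nicotinic system, of which 7 genes were tested. Ache, the acetylcholinesterase that is abundant at the neuromuscular junction, was the 1 gene called by edgeR or limma-voom (DESeq2 called 2 as lower, Ache and Chrna9). The median log2 fold change of the 7 was -0.82. Besides Ache and Chrna9 the tested genes had group means of at most 2.44 CPM, so this median rests on genes at a low level. Ache measured 14.2, 13.04 and 12.3 CPM in SDS libraries 1, 2 and 3, against 33.4, 31.7, 25.1, 29.3 and 34.3 CPM in control libraries 1 to 5. It fell by 1.22 on the log2 scale (SE 0.13), with an adjusted p of 0.0117 by edgeR with Benjamini-Hochberg adjustment, and lost its call when control library 1, control library 2 or SDS library 2 was left out (adjusted p = 0.0616, 0.0553 and 0.0936). Chrna9, a receptor subunit known in keratinocytes that was picked out after its values were seen, measured 5.74, 2.21 and 4.17 CPM in SDS libraries 1, 2 and 3, against 11.5, 15.1, 10.4, 9.60 and 10.03 CPM in control libraries 1 to 5. Its groups did not overlap, and edgeR gave a log2 fold change of -1.49 ± 0.31 (SE; adjusted p = 0.0584). It passed by DESeq2 (adjusted p = 0.000104) and by edgeR with no filter on low counts (adjusted p = 0.0362). The muscle sum given beside Lynx1 was lower in the same SDS libraries, and its part in Ache was not tested. Of 13 genes that attach or release GPI anchors, 0 passed by edgeR, DESeq2 or limma-voom (2 at an unadjusted p below 0.05 by edgeR), with a median log2 fold change of 0.11.

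Of 37 other family genes sought, 32 had an identifier and 19 passed the filter. Gml, a GPI-anchored family gene of the chromosome 15 cluster, was the 1 that passed by edgeR or limma-voom, as higher, DESeq2 called Gml and Gml2, and the median log2 fold change of the 19 was 0.11. Gml (chromosome 15, 74813452 to 74818815, minus strand) had 79, 53 and 33 counts in SDS libraries 1, 2 and 3, against 13, 6, 5, 12 and 8 in control libraries 1 to 5. That is 3.10, 1.86 and 1.38 CPM in the SDS libraries and 0.185 to 0.444 CPM in controls, a low level with no overlap. It rose by 2.67 on the log2 scale (SE 0.36), with an adjusted p of 0.0248 by edgeR with Benjamini-Hochberg adjustment. Leaving out control library 1, 2, 3 or 5 or SDS library 1 or 2 took this p above the threshold, to at most 0.122, with log2 fold changes between 2.29 and 2.82. The adjacent Gml2, whose coding sequence shares 86.8% of bases with Gml, had 32, 15 and 10 counts in SDS libraries 1, 2 and 3, against 3, 0, 0, 4 and 3 in control libraries 1 to 5. Gml2 had a log2 fold change of 3.23 ± 0.72 (SE; edgeR, adjusted p = 0.0709). It passed by DESeq2 (adjusted p = 0.00225) and by edgeR without SDS library 3 (log2 fold change 3.50, adjusted p = 0.0357), and the division of reads between the pair is uncertain.

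Slurp2, between Lypd2 and Lynx1 on chromosome 15 and encoding another secreted ligand of nicotinic receptors, measured 34.5, 38.5 and 106 CPM in SDS libraries 1, 2 and 3, against 34.8, 30.8, 29.7, 43.1 and 40.0 CPM in control libraries 1 to 5. SDS library 3 alone was above the controls, and edgeR gave a log2 fold change of 0.74 ± 0.35 (SE; adjusted p = 0.298), or of 0.04 ± 0.16 (SE; adjusted p = 0.927) without SDS library 3. Per read of Slurp1, Slurp2 had 5.62, 5.56 and 2.55 reads in SDS libraries 1, 2 and 3, against 0.887, 0.453, 0.516, 0.992 and 0.753 in control libraries 1 to 5, a ratio chosen after the values were seen. Lypd5, the most abundant of the 19, measured 295, 301 and 490 CPM in SDS libraries 1, 2 and 3, against 404, 569, 645, 311 and 529 CPM in control libraries 1 to 5, with a log2 fold change of -0.44 ± 0.28 (SE; -0.71 without SDS library 3) and overlapping groups. Cd59b, a complement inhibitor, was the remaining gene whose ranges were apart, at 1.06, 0.703 and 0.918 CPM in SDS libraries 1, 2 and 3 and 1.22 to 2.30 CPM in controls, with an adjusted p of 0.153 by edgeR.

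**Figure D4:**
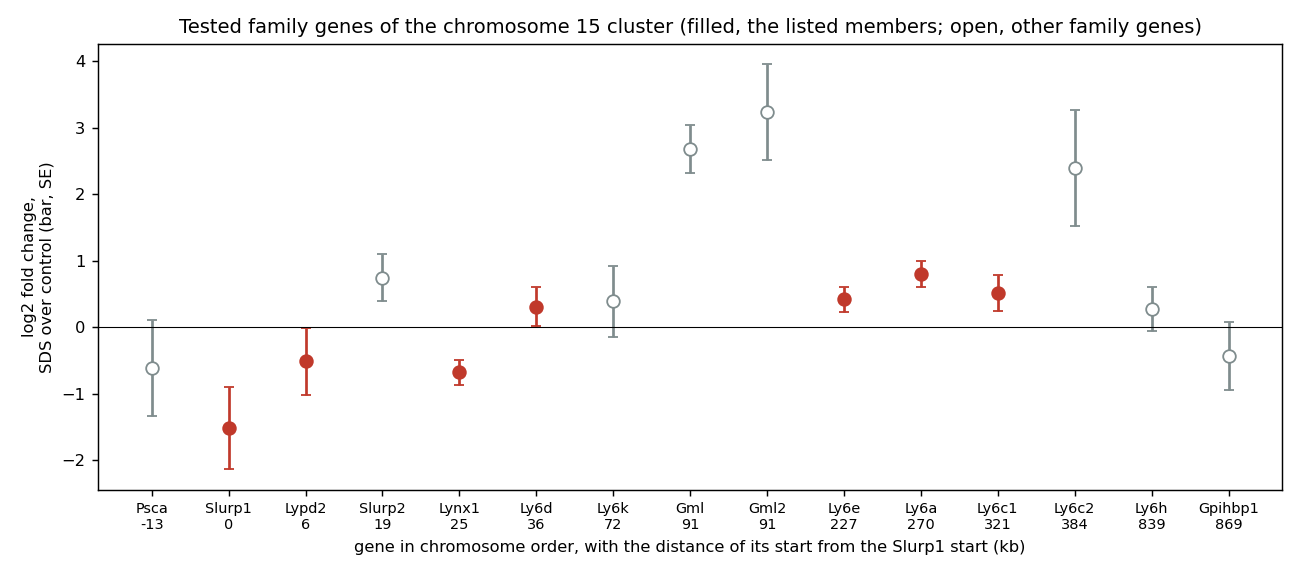
Log2 fold change (SDS over control) with its standard error for the 15 tested family genes of the chromosome 15 cluster, in chromosome order, with the distance of each start from that of Slurp1 in kb under its name. Filled points are the listed genes and open points other family genes, and neighbours run from -1.52 (Slurp1) to 3.23 (Gml2).

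For the 3 listed genes with the largest spread over the 8 libraries, the most similar profiles were sought among 11494 other tested genes with a mean of at least 5 CPM. Slurp1 was nearest to 2310007B03Rik (RMS difference 0.471) and Gng4 (0.489). Lypd2 was nearest to Defa-ps12 (0.200) and Cryl1 (0.207), and Plaur to Hacd4 (0.139) and Irf4 (0.185). Closeness over 8 libraries that share depth and tissue makeup is a description of these libraries.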

How the data were processed

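The authors deposited raw counts in a table for each library, with whole numbers for 49315 Ensembl identifiers, of which 48970 had a symbol. Per the submitters' processing notes, the tools were bcl2fastq, FastQC, STAR 2.6.1c and Subread, with mm10. No source used here gives the annotation release, the strand setting or how reads with several matches were treated.

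The analysis used edgeR 4.0.16 under R 4.3.3. filterByExpr (minimum count 10, minimum total 15) kept 17179 genes, TMM scaled the libraries, and a robust quasi-likelihood fit on group was tested two-sided, with Benjamini-Hochberg adjustment over all tested genes and a threshold of 0.05. Standard errors were taken as log2 fold change over the root of F. CPM used TMM-scaled library sizes, and log2 CPM a prior count of 2. The procedure was tested on simulated data. No libraries of a group were copies (chi-square per degree of freedom at least 24.1).

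The 10 genes and 12 other lists were chosen with earlier results of these data known. Named genes were the 10, other family genes, called genes of the other lists (at most 4 each), Plau, Serpinb2, Krt13, Krt14 and Krt6a, genes that overlap a listed gene, and the nearest profiles. Chrna9 was named after its values were seen; 1 further gene is not reported here. Comparison with marker sums and the ratios were added after values were seen. The 15 alternatives were relative log expression and upper quartile scaling, filtering at 1 CPM in 3 libraries or not at all, DESeq2 1.42.0, limma-voom (limma 3.58.1), the replicate number as a block and each library left out. Ly6g2, Ly6m, Ly6g6g, Lypd10 and Lypd11 had no match among the identifiers.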

Additional observations from a re-analysis of the deposited data

Results flagged for a closer look

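Of 29 genes examined among the 5 controls, 2 had a control library that stood far from the other controls, where chance gives about 1 in 20. Krt6b measured 66.6 CPM in control library 4, and the nearest other control had 34.9 CPM. Cd3d measured 0.237 CPM in control library 4, and the nearest other control had 0.0683 CPM. None of the 10 Ly6 and uPAR domain genes was among them.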

How the results depend on the processing

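Over 15 alternatives, 9 of the 10 genes kept the sign of their fold change, and 141 of 150 values kept both sign and side of the threshold, while 5 passed it. The count of listed genes called was 2 with DESeq2 and ranged from 0 to 3 when 1 library was left out, with 3 only without SDS library 3. The cause was not tested. Ly6g6c changed sign without control library 2 or 3 or SDS library 1 or 2, and ranged from -0.57 to 0.14 when 1 library was left out. Serpinb2, near 0, changed sign with the filter of 1 CPM in 3 libraries (-0.00030), with limma-voom (-0.042), with the replicate block (-0.21) and without some libraries (range -0.49 to 0.24). Leaving out 1 library gave 4 to 1222 calls over all genes. Same-numbered libraries of the groups deviated together with correlations of 0.311, -0.006 and 0.307. Such values follow tissue makeup as well, and they can neither show nor exclude a pairing of same-numbered libraries. With the replicate block 0 genes were called, 0 of the 10 among them, and SDS library 1 correlated best with control library 4 (0.509). Gml and Ache were not called under the block (adjusted p of 0.0660 each by edgeR). Krt14 was not called under either other filter (adjusted p of 0.0512 and 0.0508). The 95% intervals of Lypd3, Ly6d, Ly6g6c, Ly6c1, Lypd2 and Plaur included 0.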
